A study of Sus scrofa with 40 samples.

Results

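Pork belly (PB) is the layered flank and chest wall cut of the pig, and it was compared here with 3 other cuts of the same breed, Chalu black pigs. The members are the 10 libraries titled PB, out of 40 libraries in all. The other 30 are 10 each of the longissimus dorsi muscle of the back (LDM), the hamstring muscle of the hind leg (HM) and the trapezius muscle of the neck and shoulder (TM). RNA sequencing measured messenger RNA as read counts per gene, and PB was set against the mean of the other 3 cuts, each weighted equally, and against each of them in turn. All pigs were males by 1 sire, raised under the same conditions, fasted before slaughter, and sampled on the left side with fascia avoided. The labels name no treatment beyond this and give no age. The labels do not say whether libraries of the same number come from the same pig, or that libraries of a cut come from different pigs, so p-values measure the spread between these libraries, which may in part be technical.

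A pork belly sample holds thin sheet muscles of the trunk wall, which lie between layers of fat, whereas the other cuts are thick muscles of the back and limb girdles. Skeletal muscle is built of slow, oxidative fibres, which burn fatty acids in mitochondria, and fast fibres, which rely more on glycogen and glycolysis. Mitochondria carry their own small genome, which encodes core subunits of the respiratory chain, while the remaining subunits, the mitochondrial ribosome and the enzymes of fat oxidation are encoded in the nucleus.

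Total counts ran from 12305913 to 15907082 in PB and from 13301341 to 17735722 in the other cuts. The most abundant genes in PB included skeletal actin ACTA1, muscle creatine kinase CKM, the fast myosin gene model MYH4-MYH1-MYH2 and the slow myosin MYH7, so the libraries carry the defining transcripts of skeletal muscle. For PB1, the first PB library, the title says PB but the tissue entry says longissimus. Its deviation from the mean of all libraries correlated at 0.516 with the mean of the other PB libraries and at -0.181 with the LDM mean, across the 11713 genes that passed the filter on low counts. By the same measure 10 of 10 PB libraries lay nearest to PB, with correlations of 0.21 for PB8 and 0.348 to 0.551 for the others. In the other cuts 10 of 10 LDM, 8 of 10 HM and 7 of 10 TM libraries lay nearest to their own cut. HM9 and TM7 were nearest to LDM (0.399 in both), HM6 to TM (0.221), TM3 to HM (0.226) and TM6 to PB (0.135, and 0.053 to TM). PB8 stood apart within its cut. Counts that moved by more than 1.5 times without PB1 and PB8 together are given with that value.

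PB differed from each other cut in the same direction at 969 genes that were higher and 361 that were lower. These genes, called set apart below, pass an adjusted p of 0.05 against LDM, HM and TM separately (edgeR quasi-likelihood test with Benjamini-Hochberg adjustment). They are 8.27% and 3.08% of the 11713 genes tested, out of 21280 in the table. A change of at least 2-fold against each of the 3 cuts was found for 347 higher genes (2.96%) and 22 lower genes (0.188%). In 158 genes (1.35%) all 10 PB libraries lay above all 30 others, and in 0 genes (0%) did all 10 lie below. Against the equal mean of the other cuts, 2085 genes were higher (17.8%) and 1931 lower (16.5%). The 3 comparisons share the PB libraries and are therefore not independent of each other.

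The count of lower genes moved more than that of higher genes when the processing was changed. With PB1 and PB8 left out, 828 genes were set apart higher and 257 lower, and the 2-fold counts were 312 and 12. In each of the 40 fits with 1 library left out, the calls were compared gene by gene. Of the 969 higher genes, 753 kept the call whichever library was left out, and of the 361 lower genes 107 did. Genes set apart higher made up 72.9% of those set apart, against 87.4% (1156 higher, 167 lower) when the library scaling left out the mitochondrially encoded genes and 89.2% (1151 and 140) without HM6, HM9, TM3 and TM7, and 76.5% (1026 and 315) when TM6 was left out along with those 4. Against the mean of the others, that share was 51.9%, and 66.5% without the mitochondrially encoded genes in the scaling and 68.6% without the 4 libraries. The median log2 change of all genes against the mean of the others was -0.07, and it was 0.0038 and 0.0206 in the same 2 fits. Without the 5 libraries it was -0.0526, and the higher share against the mean was 54.7%. Leaving out 1 library of HM4, HM7, HM9, LDM1, LDM5, LDM8, TM4, TM5 or TM8 gave 168 to 179 genes set apart lower, and 1 of HM6, LDM7, LDM9, TM3, TM6 or TM7 gave 202 to 244. In these fits the reference library of the scaling also changed. With the scaling factors of all libraries kept, leaving out any 1 library gave 288 to 383.

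The gene furthest above every other cut was GOLGA4, which encodes a golgin, a coiled-coil tether of the trans-Golgi network. It lies on chromosome 13 from 22125121 to 22250466 of the Sscrofa11.1 build. In PB its level ran from 52.8 to 99.8 CPM (counts scaled to a common library total) with a median of 73.5. The medians were 3.70 in LDM, 4.12 in HM and 6.23 in TM, and the highest of those 30 libraries had 10.9 CPM. The PB range and the range of the others did not overlap. The log2 change was 4.15 ± 0.30 (SE) against LDM, 3.88 ± 0.29 against HM and 3.64 ± 0.29 against TM, at least 12.5-fold by the smallest of the 3 (adjusted p = 4.88e-12, edgeR).

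By the gene ontology terms of the deposited table, looked up after the values were seen, 70 of 377 tested centrosome genes were set apart higher (18.6%). For the Golgi apparatus it was 66 of 709 (9.31%) and for the endoplasmic reticulum 45 of 693 (6.49%), beside 8.27% of all genes tested. Gene length was not held equal in these shares. Higher calls rose from 2.94% in the shortest to 15.6% in the longest of 5 equal groups of genes by length. KTN1, kinectin, a membrane protein of the endoplasmic reticulum that binds kinesin, ran from 145 to 513 CPM in PB (median 255). Its highest value in any other cut was 78.1 CPM, in HM. AKAP9, a scaffold that anchors protein kinase A at the centrosome and Golgi, ran from 80.3 to 201 CPM in PB (median 123), against 7.44 to 49.6 in the others. Neither gene overlapped between PB and any other cut, and the smallest log2 changes were 2.66 ± 0.33 for KTN1 (against HM, adjusted p = 2.49e-07, edgeR) and 2.49 ± 0.30 for AKAP9 (against LDM, adjusted p = 5.3e-08, edgeR).

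CEP290, a centrosomal protein of the base of the cilium, and CNTLN, a centriole protein, were also separate, at low counts. CEP290 had a median of 5.40 CPM in PB (3.39 to 6.44), and no other library exceeded 1.71. CNTLN had a median of 2.09 CPM in PB (1.02 to 2.71), and no other library exceeded 0.981. The smallest log2 changes were 2.82 ± 0.35 and 2.34 ± 0.37, with adjusted p = 1.28e-07 and 1.12e-05 (edgeR).

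Of 239 tested genes with the term chromatin, 39 were set apart higher (16.3%), beside 8.27% of all genes tested. Gene length was not held equal in this share either. The genes named next are among the 12 with the largest smallest change. SMC3, a ring subunit of cohesin, ran from 29.2 to 53.5 CPM in PB (median 36.3) and from 1.54 to 13.1 in the other cuts. ATRX, a chromatin remodeller, ran from 28.2 to 51.2 CPM in PB (median 39.8), against at most 14.8 elsewhere. RIF1, a regulator of replication timing and DNA repair, had a PB median of 13.3 CPM (8.43 to 20.1) and at most 4.79 elsewhere. PB did not overlap the other cuts in any of these 3 genes, whose smallest log2 changes were 2.34, 2.29 and 2.30. CEBPZ, a nuclear protein of ribosome biogenesis, was likewise separate, at 32.4 to 91.4 CPM in PB and at most 19.7 elsewhere (smallest log2 change 2.33 ± 0.31).

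TET2, which oxidizes 5-methylcytosine in DNA, and JMJD1C, of the jumonji family of histone demethylases, were set apart as well, but their PB libraries were far from uniform. TET2 ran from 9.61 to 291 CPM in PB with a median of 22.7, and it was highest in PB5 (291), PB8 (249) and PB3 (151). The other cuts spanned 2.18 to 26.2 CPM, and 4 of 10 PB libraries lay above all of them. Its smallest log2 change was 2.43 ± 0.52 (against HM, adjusted p = 0.000557, edgeR). With sample quality weights in limma-voom it was 0.87 (adjusted p = 0.0833), which ends the call. JMJD1C ran from 32.5 to 91.4 CPM in 9 PB libraries and reached 284 in PB8. The LDM libraries spanned 3.801 to 21.3 and the HM libraries 7.93 to 22.1, while 1 TM library reached 58.0, inside the PB range.

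**Figure D1:**
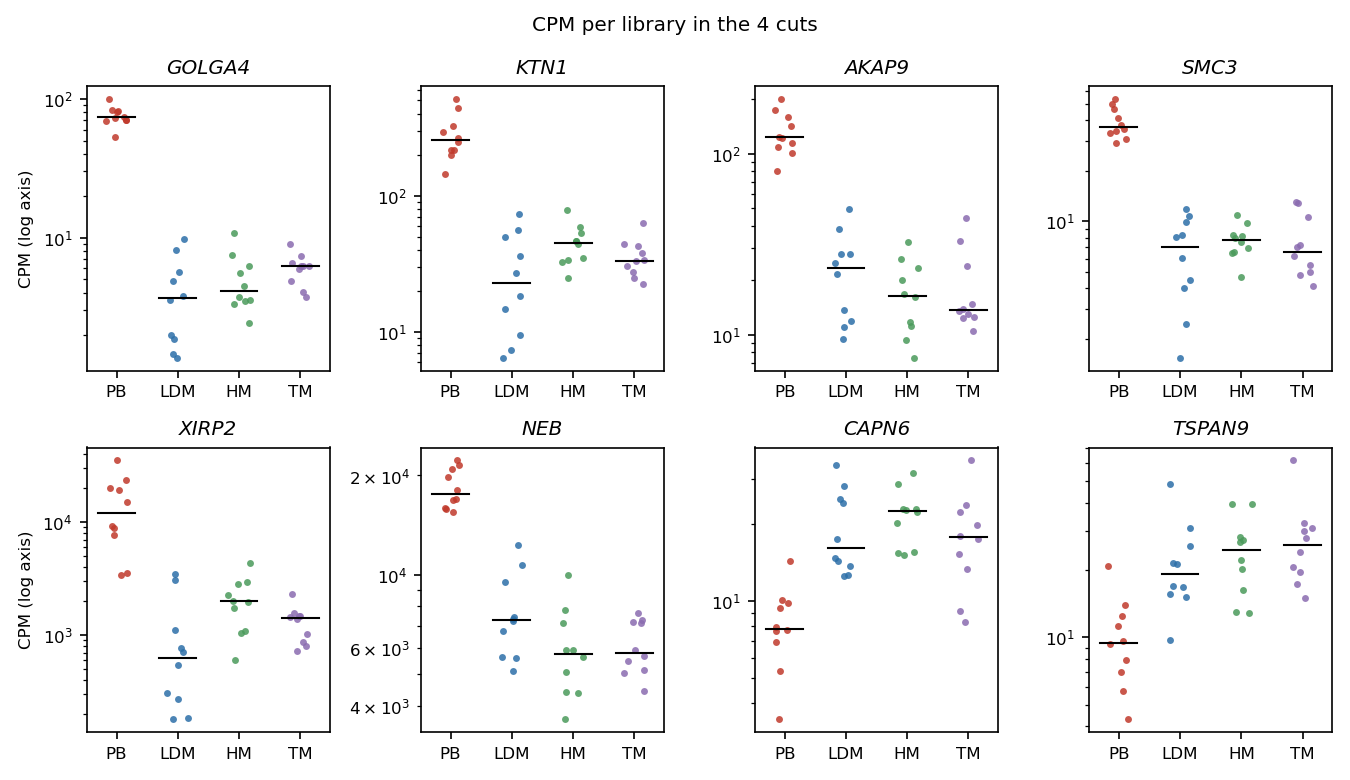
CPM (log axis, scale set per panel) of 8 genes in each library of the 4 cuts. Points are libraries and bars are medians. PB does not overlap the other cuts in GOLGA4, KTN1, AKAP9, SMC3 and NEB, 8 of 10 PB libraries lie above all others in XIRP2, and 6 of 10 lie below all others in CAPN6 and in TSPAN9.

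Of 70 tested genes with the term Z disc, 5 were set apart higher (7.14%), and of 59 with the term sarcolemma 3 were (5.08%). Both shares were below the 8.27% of all genes tested, and gene length was not held equal in them. XIRP2, a Xin-repeat protein that binds actin in striated muscle, lies on chromosome 15 from 73433932 to 73741041. It ran from 3413 to 35289 CPM in PB (median 12151), from 180 to 3465 in LDM, from 605 to 4400 in HM and from 730 to 2338 in TM. In 8 of 10 PB libraries it was above every other library, and PB4 (3413) and PB10 (3533) fell within the range of the others. Its smallest log2 change was 2.80 ± 0.49, against HM (adjusted p = 4.38e-05, edgeR).

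NEB, nebulin, the giant protein that runs along the thin filament of the sarcomere, was the most abundant gene set apart outside the mitochondrial genome. It ran from 15449 to 22213 CPM in PB (median 17529), from 5084 to 12297 in LDM, from 3630 to 9943 in HM and from 4432 to 7618 in TM, with no overlap. The log2 changes were 1.24 ± 0.16, 1.62 ± 0.17 and 1.59 ± 0.17, the first with adjusted p = 2.26e-07 (edgeR). Per kilobase NEB stood at 726 ± 114 FPKM in PB (SD, n = 10), beside 999.7 ± 592 for XIRP2 and 1235 ± 401 for MYH7.

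The next 3 muscle genes were picked for a lack of overlap after their values were seen, so that their separation is a description. In 2 of the 70 Z disc genes and 1 of the 59 sarcolemma genes all PB libraries lay above all others, beside 158 of all 11713 tested. TRDN, triadin, a protein of the calcium release complex of the sarcoplasmic reticulum, ran from 465.5 to 1717 CPM in PB and from 65.7 to 375 in the others (smallest log2 change 2.21). CMYA5, myospryn, a muscle protein of the Z-disc region, ran from 3755 to 7101 CPM in PB and from 485 to 3265 in the other cuts (smallest log2 change 1.39). DMD, dystrophin, which links the cytoskeleton to the fibre membrane, ran from 177 to 317 CPM in PB and from 54.9 to 147 in the others (smallest log2 change 1.35).

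The genes that were lower in PB were fewer and changed less: the median of the smallest log2 change was -0.45 over the 361 lower genes and 0.84 over the 969 higher genes. LRRC38, an auxiliary subunit of calcium-activated potassium channels, had the most negative smallest change of the named genes. It ran from 0.0821 to 1.57 CPM in PB (median 0.445), with medians of 1.88 in LDM, 2.02 in HM and 1.92 in TM. Its ranges overlapped in all 3 comparisons, and the smallest log2 change was -1.96 ± 0.52 (against LDM, adjusted p = 0.00236, edgeR).

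ALDH1A2, an enzyme that makes retinoic acid, was lower by different amounts. It ran from 0 to 3.01 CPM in PB (median 1.154), with medians of 5.33 in LDM, 13.9 in HM and 3.29 in TM. The PB range lay wholly below that of HM and overlapped those of LDM and TM. The log2 change was -2.06 ± 0.43 against LDM, -3.76 ± 0.44 against HM and -1.66 ± 0.43 against TM (adjusted p = 0.00438, edgeR).

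CAPN6, a calpain without protease activity, ran from 3.44 to 14.4 CPM in PB (median 7.81), with medians of 16.2, 22.6 and 17.8 in LDM, HM and TM. PB lay wholly below HM, and 6 of 10 PB libraries were below all other libraries (smallest log2 change -1.14 ± 0.23, adjusted p = 0.000376, edgeR). TSPAN9, a tetraspanin membrane protein, ran from 4.29 to 20.9 CPM in PB (median 9.46), with medians of 19.2, 24.5 and 25.9 elsewhere, and 6 of 10 PB libraries were below all others. RASGEF1C, an exchange factor for Ras-family GTPases, had a PB median of 1.999 CPM, and 7 of 10 PB libraries lay below all others.

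Receptors, ligands and a channel made up most of the remaining lower genes that the rule names. FGFR4, a fibroblast growth factor receptor of myogenic cells, had a smallest log2 change of -1.16 ± 0.32. GDF11, a ligand of the transforming growth factor beta family close to myostatin, had -1.16 ± 0.29. PENK, the precursor of enkephalins, had -0.92 ± 0.32, KCNJ14, an inward rectifier potassium channel, -1.09 ± 0.35, and C1QTNF6, a secreted C1q-domain protein, -1.05 ± 0.31. EMILIN3, a matrix glycoprotein, had -1.20 ± 0.35, and SLC25A42, a carrier of coenzyme A into mitochondria, -0.99 ± 0.27. Without PB1 and PB8 the value of PENK was -0.79 (adjusted p = 0.0602, edgeR), and without HM6, HM9, TM3 and TM7 those of EMILIN3 and KCNJ14 were -0.90 and -0.88 (adjusted p = 0.0745 and 0.0675, edgeR). These 3 calls then end. With TM6 left out as well, EMILIN3 and KCNJ14 were at -0.98 and -0.91 (adjusted p = 0.0555 and 0.0645, edgeR).

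The 5 most abundant lower genes had small changes. MPRIP, which targets myosin phosphatase to actin, ran from 154 to 290 CPM in PB (median 192), with medians of 327, 357 and 301 in LDM, HM and TM. The smallest log2 change was -0.56 ± 0.17 for MPRIP, -0.55 ± 0.16 for the lysosomal protease CTSD, -0.47 ± 0.12 for TLN1, the talin of focal adhesions, -0.47 ± 0.13 for the protein disulfide isomerase P4HB and -0.56 ± 0.14 for WDR82, a subunit of histone methyltransferase complexes. PB overlapped the other cuts in each of them.

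Mitochondrially encoded genes were higher in PB as a group. Of 13 members, 12 passed the filter on low counts, 12 were higher than the mean of the other cuts and 10 were set apart from each cut. Their median log2 change against the mean of the others was 1.65, beside -0.07 for all genes tested. These genes took 9.31% to 16.2% of the counts of PB libraries (median 12.7%), 3.63% to 6.05% in LDM, 6.51% to 10.6% in HM and 5.37% to 11.5% in TM. All 10 PB libraries were above every LDM library, and 8 of 10 were above every HM and every TM library, the exceptions being PB8 (9.31%) and PB2 (9.93%). The share was 12.5% ± 1.96 (SD, n = 10) in PB. It exceeded LDM by 7.52 points (adjusted p = 4e-05), HM by 3.37 (adjusted p = 0.00036) and TM by 4.96 (adjusted p = 0.000133) in two-sided permutation tests with 100000 resamples over 4 comparisons. The raw p against LDM, 2e-05, is the smallest these permutations can give.

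Complex I subunits had the largest changes. ND2 ran from 3858 to 8493 CPM in PB (median 6343), from 404 to 1134 in LDM, from 1531 to 2701 in HM and from 852 to 2318 in TM, with no overlap. Its log2 change was 2.93 ± 0.20 against LDM, 1.48 ± 0.19 against HM (adjusted p = 2.49e-07, edgeR) and 2.06 ± 0.19 against TM. ND5 ran from 3635 to 19917 CPM in PB (median 10322), with 9 of 10 PB libraries above the highest of the others, 3782 in HM. PB10 (19917) and PB9 (18991) were highest and PB1 (3635) was lowest. ND5 changed by 3.28 ± 0.26, 2.01 ± 0.25 and 2.57 ± 0.25 on the log2 scale against LDM, HM and TM.

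The subunits differed among themselves. ND4, CYTB of complex III, COX2 of complex IV and ATP6 of the ATP synthase also showed no overlap between PB and the others. Against HM, the cut nearest to PB in mitochondrial share, they changed by 1.20 ± 0.20, 0.85 ± 0.14, 1.16 ± 0.16 and 1.21 ± 0.16 on the log2 scale. COX1 and COX3, the other core subunits of complex IV, were the 2 tested members that were not set apart, and they and ND6 are named after their values were seen. The mean of COX1 was 36596 CPM in PB and 36480 in HM, and that of COX3 was 22666 in PB and 20255 in HM. Against the mean of the others the log2 change was 0.32 for COX1 and 0.56 for COX3, and it was 2.35 for ND6. ND6 lies on the opposite strand beside ND5, and ND4L overlaps ND4. The sources used here do not state whether the counting used strand, so the split of reads between such neighbours is uncertain.

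**Figure D2:**
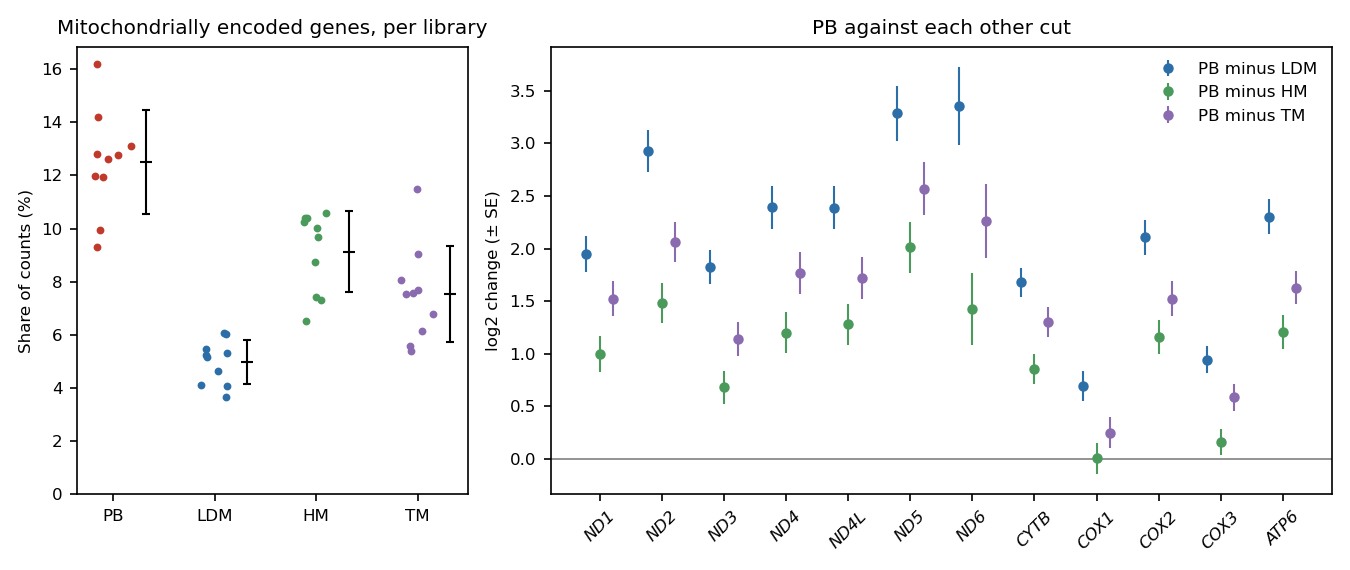
Left, share of counts (%) from mitochondrially encoded genes per library (points) with mean and SD (bars). Right, log2 change of PB against each other cut with its SE for the 12 tested genes, which are highest against LDM, lowest against HM and near 0 against HM for COX1 and COX3.

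Genes for mitochondrial transcription and RNA processing moved in both directions. Of 24 tested, 7 were higher than the mean of the others and 3 lower, beside 17.8% and 16.5% of all genes tested. Set apart were 6 higher (25.0%) and 2 lower (8.33%), beside 8.27% and 3.08% of all genes tested. PNPT1, the mitochondrial polynucleotide phosphorylase, ran from 11.4 to 22.5 CPM in PB and from 1.71 to 8.59 elsewhere, without overlap (smallest log2 change 1.45 ± 0.20, adjusted p = 1.22e-06, edgeR). FASTKD1, a mitochondrial RNA-binding protein, changed by at least 1.13 ± 0.23 on the log2 scale, and LRPPRC, which stabilizes mitochondrial messenger RNA, by at least 0.80 ± 0.17. TFAM, the packaging and transcription factor of the mitochondrial genome, had 27.6 CPM in PB and 16.8 to 19.1 in the other cuts. POLRMT, the mitochondrial RNA polymerase, went the other way, with 40.03 CPM in PB and 54.1 to 61.2 in the others, and both genes were picked out after their values were seen. The list's median log2 change was -0.05. The counts set apart were 4 higher and 2 lower without PB1 and PB8. When HM6, HM9, TM3 and TM7 were left out 0 were set apart lower (edgeR), and 2 were when TM6 was left out as well.

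The nuclear partners of the mitochondrially encoded subunits showed few calls. Among 57 tested nuclear genes of oxidative phosphorylation, 5 were higher than the mean of the others, 3 were lower and 1 was set apart, with a median log2 change of -0.02. The set-apart member was the complex I subunit NDUFA5, whose smallest log2 change was 0.45 ± 0.17 (adjusted p = 0.0474, edgeR). That call ended when any of 12 single libraries was left out and without PB1 and PB8 together (0.43, adjusted p = 0.0746, edgeR). Of 48 tested mitochondrial ribosomal proteins, 6 were higher and 17 lower than the mean, with a median of -0.17. MRPL1 was set apart higher, by at least 0.87 ± 0.18, and MRPL4 and MRPL14 lower, by -0.33 ± 0.11 and -0.30 ± 0.10. The lower count fell to 11 without PB1 and PB8 and to 8 when the scaling left out the mitochondrially encoded genes, and in the latter MRPL4 and MRPL14 no longer passed (adjusted p = 0.0771 and 0.118, edgeR).

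Fibre type genes differed between PB and LDM. PB against LDM called 20.5% of all genes higher and 21.2% lower, PB against HM 13.5% and 14.1%, and PB against TM 13.4% and 9.69%. Of 16 slow fibre genes, 15 were higher and 1 was lower in PB than in LDM. Against HM and TM 0 passed in edgeR, and 1 did in each at an unadjusted p under 0.05. Against the mean of the others 4 were higher and 0 lower, with a median of 0.39. In edgeR 0 were set apart, and in DESeq2 and in limma-voom 1 was. MYH7, the slow myosin heavy chain, ran from 13364 to 36393 CPM in PB (median 27929), from 3948 to 16387 in LDM, from 7609 to 43581 in HM and from 4399 to 73050 in TM. Its log2 change was 1.56 ± 0.33 against LDM (adjusted p = 0.000233), 0.13 ± 0.32 against HM and -0.37 ± 0.32 against TM (adjusted p = 0.81 and 0.419, edgeR). MYBPC1, slow myosin binding protein C, came closest to being set apart, with 1.92 ± 0.16, 0.39 ± 0.16 and 0.41 ± 0.16 and adjusted p = 0.0573 and 0.0566 against HM and TM (edgeR).

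Of 14 fast fibre genes, 12 were lower in PB than in LDM. By edgeR 0 differed from the mean of the others (2 at an unadjusted p under 0.05, 0 by DESeq2 and by limma-voom), and the median was -0.19. CASQ1, the calcium store protein of fast fibres, had a log2 change of -1.04 ± 0.20 against LDM, 0.01 ± 0.20 against HM and -0.05 ± 0.20 against TM. Of 18 genes of glycolysis and glycogen breakdown, 14 were lower in PB than in LDM, and 1 was higher and 1 lower than the mean of the others, with a median of -0.16. The 1 lower became 0 without PB1 and PB8 (edgeR).

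Fatty acid oxidation held genes that were higher than in all 3 cuts. Of 27 tested, 9 were higher and 1 lower than the mean of the others, beside 17.8% and 16.5% of all genes tested. Set apart were 4 higher (14.8%) and 1 lower (3.7%), the transporter SLC27A4, beside 8.27% and 3.08% of all genes tested. CD36, which takes up fatty acids at the fibre membrane, ran from 205 to 578 CPM in PB (median 419), with medians of 154 in LDM, 185 in HM and 272 in TM. Of its PB libraries, 6 of 10 lay above every other library, and the smallest change was 0.60 ± 0.19, against TM (adjusted p = 0.0162, edgeR). ACADM, the medium-chain acyl-CoA dehydrogenase, ran from 209 to 525 CPM in PB (median 443), with medians of 131, 252 and 211, and changed by at least 0.79 ± 0.20 on the log2 scale. DECR1, needed to oxidize unsaturated fatty acids, ran from 55.5 to 86.7 CPM in PB (median 64.6), with medians of 19.7, 40.8 and 34.5, and changed by at least 0.72 ± 0.17. The list's median log2 change was 0.20. With PB1 and PB8 left out 13 were higher than the mean, and 4 were set apart higher and 0 lower (edgeR).

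The citric acid cycle list had 6 members higher and 0 lower than the mean among 19 tested. Of the 19, 2 were set apart higher (10.5%, beside 8.27% of all genes tested). The list's median was 0.08. DLD, the shared dihydrolipoamide dehydrogenase subunit, ran from 167 to 249 CPM in 9 PB libraries and stood at 105 in PB8. Its range in the other cuts was 45.5 to 164 CPM, and the smallest log2 change was 0.89 ± 0.17 (adjusted p = 0.000137, edgeR). SUCLA2, a subunit of succinyl-CoA ligase, changed by at least 0.69 ± 0.15. Among 21 regulators of oxidative metabolism, 5 were higher and 5 lower than the mean (median 0.04), and 1 was set apart: NFE2L2, the transcription factor of the antioxidant response, by at least 0.82 ± 0.21. Of these regulators, 3 were lower than the mean without PB1 and PB8.

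Lipid synthesis genes differed in both directions, and few adipocyte markers differed. Of 18 lipid synthesis genes, 2 were higher and 4 lower than the mean of the others, beside 17.8% and 16.5% of all genes tested. Their median was -0.10. The desaturase FADS2 was set apart lower (smallest log2 change -0.62 ± 0.25), a call that 24 of the 40 single libraries ended when left out, as did PB1 and PB8 together (-0.49, adjusted p = 0.137, edgeR). FASN, fatty acid synthase, had medians of 24.2 CPM in PB and 38.9, 28.7 and 30.5 in LDM, HM and TM. SCD, the stearoyl-CoA desaturase, had 11.98 CPM in PB and 9.80, 16.8 and 20.1 in the others. The log2 changes against the mean were -0.25 ± 0.23 for FASN (adjusted p = 0.411) and -0.46 ± 0.32 for SCD (adjusted p = 0.277, edgeR). With limma-voom FASN passed, at -0.60 (adjusted p = 0.0337).

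Of 12 tested adipocyte markers, 0 were higher and 1 was lower than the mean of the others by edgeR, the same counts as at an unadjusted p under 0.05, by DESeq2 and by limma-voom. Their median was -0.02, and the summed level of the 15 markers in the table was 914 to 2078 CPM in PB (median 1438), with medians of 1842 in LDM, 1291 in HM and 1629 in TM. ADIPOQ, adiponectin, ran from 1.64 to 57.0 CPM in PB (median 15.8), with medians of 19.6, 13.9 and 24.6, and a log2 change of -0.02 ± 0.47 (adjusted p = 0.983, edgeR). CFD, adipsin, was set apart lower, with 24.0 to 47.5 CPM in PB (median 37.9) and medians of 64.7, 52.5 and 52.2. Its smallest log2 change was -0.53 ± 0.17 (adjusted p = 0.0225, edgeR). With the gene length correction it was -0.39 (adjusted p = 0.109), which ends the call, as did leaving out TM6, TM7 or TM8 alone. In bulk samples fewer cells of a type and less RNA per cell cannot be told apart.

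Cytosolic ribosomal proteins leaned lower, most of all against LDM. Of 53 tested, 3 were higher and 33 lower than the mean of the others, beside 17.8% and 16.5% of all genes tested. Set apart were 0 higher and 6 lower (11.3%), beside 8.27% and 3.08% of all genes tested. The median log2 change was -0.27. Against LDM 0 were higher and 38 lower (median -0.40), against HM 4 and 12 (-0.15), and against TM 4 and 12 (-0.21). RPS16 ran from 55.3 to 96.7 CPM in PB (median 80.2), with medians of 151 in LDM, 93.2 in HM and 105 in TM, so that LDM alone was separate. RPL14 and RPL27 were the others with the smallest p, at -0.31 ± 0.10 and -0.32 ± 0.11 in their smallest comparison. The count of 33 fell to 18 when the scaling left out the mitochondrially encoded genes and to 13 with the gene length correction, and the 6 set apart lower fell to 0 in both and to 3 without PB1 and PB8. Of 30 proteasome genes, 3 were higher and 11 lower than the mean, beside 17.8% and 16.5% of all genes tested. The median was -0.18. Against LDM 2 were higher and 22 lower (median -0.47), against HM 3 and 4 (-0.10), and against TM 4 and 0 (0.03). Set apart higher were 6.67% of the list, beside 8.27% of all genes tested. PSMA3 and PSMC6 were set apart higher, by at least 0.29 ± 0.11 and 0.47 ± 0.18, but without PB1 and PB8 0 of the list were set apart and 6 were lower than the mean (edgeR).

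Natriuretic peptide and cyclic GMP signalling held a receptor and a kinase with large but uneven differences. Of 16 tested genes 3 were higher and 5 lower than the mean, and 2 were set apart higher (12.5%, beside 8.27% of all genes), with a median of -0.01. The counts against the mean became 2 higher and 2 lower without PB1 and PB8. NPR3, the natriuretic peptide clearance receptor, ran from 4.38 to 113 CPM in PB with a median of 11.7. PB7 (113) and PB10 (107) lay above every other library, and the remaining 8 ran from 4.38 to 16.3. The medians were 0.742 in LDM, 2.48 in HM and 3.29 in TM, and PB lay wholly above LDM. The log2 change was 5.36 ± 0.77 against LDM, 2.68 ± 0.65 against HM and 2.18 ± 0.64 against TM (adjusted p = 0.0115, edgeR).

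PRKG1, the cyclic GMP-dependent protein kinase, ran from 7.82 to 324 CPM in PB with a median of 17.7, and was highest in PB8 (324), PB5 (253) and PB3 (77.1). The HM median was 16.1, so the middle of the PB libraries lay close to HM. Its smallest log2 change was 2.23 ± 0.68 (against HM, adjusted p = 0.0127, edgeR). Without PB8 it was 1.59 (adjusted p = 0.0579), and with limma-voom 0.42 (adjusted p = 0.493), so the call rests on a few libraries. NOS1, the neuronal nitric oxide synthase of muscle, was picked out after its values were seen. It was lower than the mean of the others, with 75.5 CPM in PB and 199 in LDM, 97.3 in HM and 158 in TM.

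Among matrix genes 1 collagen and 1 other gene were set apart. Of 16 collagens 4 were higher and 4 lower than the mean of the others, beside 17.8% and 16.5% of all genes tested. Their median was -0.19. The 4 higher became 2 without PB1 and PB8 and 2 with limma-voom. COL5A3 was set apart lower, at 38.5 to 88.5 CPM in 9 PB libraries and 11.15 in PB8, with medians of 78.8, 90.5 and 86.1 in LDM, HM and TM (smallest log2 change -0.56 ± 0.19, adjusted p = 0.019, edgeR). It was -0.48 (adjusted p = 0.0543) without HM6, HM9, TM3 and TM7. COL1A1, the main collagen of connective tissue, ran from 19.8 to 1059 CPM in PB (median 175), and its log2 change was 0.31 ± 0.31 (adjusted p = 0.46, edgeR). Of 21 other matrix and tendon genes, 5 were higher and 0 lower than the mean, with a median of 0.29. The 5 became 2 without PB1 and PB8 and 2 with limma-voom. Against LDM 12 were higher and 0 lower (median 0.87), against HM 1 and 3 (0.01), and against TM 2 and 1 (0.01). LOX, which crosslinks collagen, was set apart, with 5.73 to 95.3 CPM in PB (median 16.3) and medians of 6.70, 5.44 and 7.92. It was highest in PB1 (95.3) and PB7 (50.3), and without PB1 its smallest log2 change fell from 1.42 ± 0.49 to 0.92 (adjusted p = 0.153, edgeR).

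Of 9 plasminogen activation genes, 2 were higher than the mean of the others and 0 were set apart by edgeR, DESeq2 or limma-voom or at an unadjusted p under 0.05, with a median of 0.03. Of these, 1 was higher without PB1 and PB8, and with limma-voom 0 were higher and 1 was lower. SERPINB2, an inhibitor of plasminogen activators, had a median of 0.136 CPM in PB. It reached 75.9 in PB8, 19.9 in PB5 and 6.92 in PB3, and was below 1 CPM in the remaining 7. The log2 change against the mean was 4.33 ± 0.77 (adjusted p = 3.09e-05, edgeR), 2.58 without PB8 and 0.32 with limma-voom (adjusted p = 0.807).

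HOX genes record position along the body axis. Of 11 tested in groups 1 to 5, 1 was higher than the mean of the others, of 9 in groups 6 to 9, 2 were higher, and of 5 in groups 10 to 13, 1 was higher and 1 lower, with medians of -0.18, 0.26 and -1.68. By edgeR, DESeq2 and limma-voom 0 were set apart, as at an unadjusted p under 0.05. In groups 6 to 9 the 2 higher became 1 without PB1 and PB8. With limma-voom 0 were higher in any group and 4 were lower in groups 10 to 13. HOXC10 ran from 0 to 3.26 CPM in PB (median 0.706), with medians of 13.7 in LDM, 57.8 in HM and 0.0296 in TM. PB lay below LDM and HM without overlap, by -4.49 ± 0.67 and -5.42 ± 0.70 on the log2 scale. HOXC5 had medians of 2.41 CPM in PB, 2.32 in LDM, 0.0743 in HM and 4.97 in TM. HOXA9 had a median of 0.600 CPM in PB, but 150 in PB9 and 78.4 in PB10, above every HM library (19.3 to 59.8). Its log2 change against the mean was 2.78 ± 0.76, and it turned to -1.16 with limma-voom (adjusted p = 0.317), so no direction is given.

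Other positional transcription factors were set apart in 4 of 24 tested genes, 3 higher and 1 lower, with a median of -0.06. These are 12.5% and 4.17% of the list, beside 8.27% and 3.08% of all genes tested. SIM1, a factor of somite-derived muscle precursors, ran from 1.75 to 33.9 CPM in PB (median 9.51), from 1.149 to 10.2 in LDM, from 0 to 1.74 in HM and from 0 to 1.12 in TM. PB was separate from HM and TM and overlapped LDM (log2 change 5.56 ± 0.74, 5.15 ± 0.72 and 1.55 ± 0.58). Without PB10, the highest library, the LDM change was 1.22 (adjusted p = 0.0887, edgeR), and without PB9 it was 1.39 (adjusted p = 0.0565). BARX2, a homeobox factor of myoblasts, had a median of 3.03 CPM in PB, and its smallest change of 1.75 ± 0.56 became 1.25 without PB8 (adjusted p = 0.0901, edgeR). In this list 2 genes were set apart higher and 0 lower without PB1 and PB8 (edgeR).

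PRRX1, a homeobox factor of limb and trunk wall mesenchyme, was higher than the mean of the others without being set apart. It ran from 86.8 to 350 CPM in PB (median 137), with medians of 38.4 in LDM, 126 in HM and 128 in TM. The log2 change was 2.01 ± 0.31 against LDM, 0.35 ± 0.29 against HM and 0.57 ± 0.30 against TM (adjusted p = 0.389 and 0.163, edgeR).

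Stress and turnover genes held few calls. Of 18 heat shock genes 1 was higher than the mean of the others, DNAJB4, a chaperone partner, and of 22 immediate early genes 1, SOCS3, a feedback inhibitor of cytokine signalling. The medians were 0.11 and -0.10. With limma-voom these counts were 0 in both, and 6 heat shock genes and 1 immediate early gene were lower. SOCS3 ran from 1.43 to 397 CPM in PB (median 23.3), was highest in PB8, PB5 (156) and PB3 (112), and lost the call without PB8 (log2 change 1.03, adjusted p = 0.159, edgeR). Of the immediate early genes, 0 were higher and 1 was lower without PB1 and PB8. Of 17 genes of proteolysis and atrophy, CAST and CTSD were set apart, higher and lower, and the median was -0.07. That is 5.88% each way, beside 8.27% higher and 3.08% lower of all genes tested. CAST, calpastatin, the inhibitor of the calpains that soften meat after slaughter, ran from 142 to 295 CPM in PB (median 190), with medians of 127 in LDM, 114 in HM and 103 in TM. In 8 of 10 PB libraries it exceeded every other library, and it changed by at least 0.71 ± 0.17 (adjusted p = 0.00076, edgeR).

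**Figure D3:**
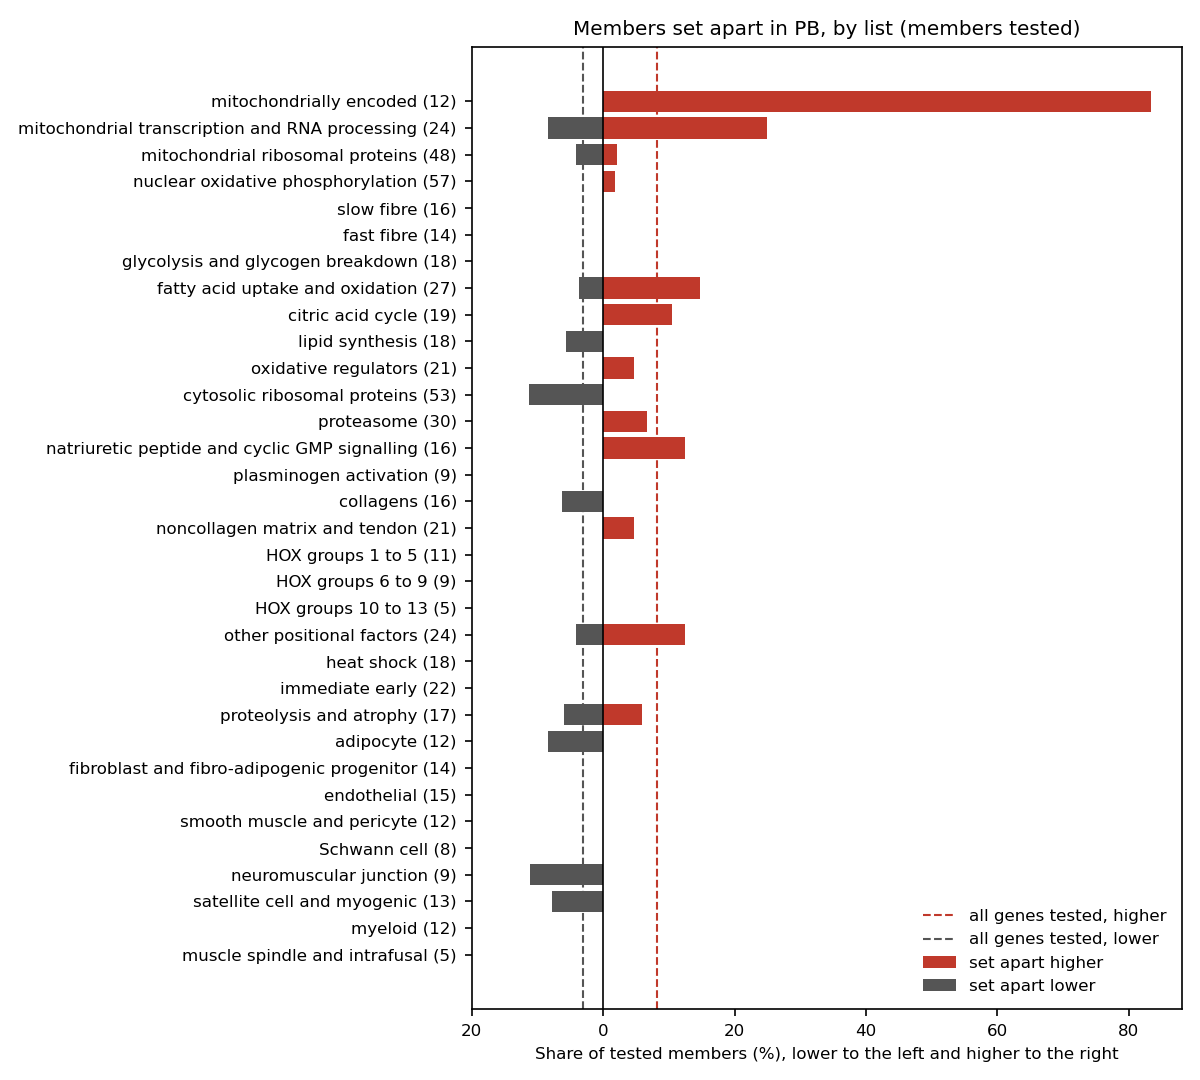
Share of the tested members of each list (%) that were set apart higher (right of 0) or lower (left of 0), for the lists with at least 5 tested members, whose number is in brackets. Dashed lines mark all genes tested, at 8.27% higher and 3.08% lower, and 83.3% of the mitochondrially encoded genes were set apart higher.

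Markers of other cell types were compared because a cut holds vessels, nerves and connective tissue besides muscle fibres. Of 12 smooth muscle and pericyte markers 1 was higher and 6 were lower than the mean of the others, with a median log2 change of -0.54. Of all genes tested 17.8% were higher and 16.5% lower than that mean. Without PB1 and PB8 3 of these markers were lower than the mean. Against LDM 1 was higher and 0 were lower (median -0.08), against HM 0 and 7 (-0.87), and against TM 0 and 3 (-0.72). ACTA2, smooth muscle actin, picked out after its values were seen, had a log2 change of -0.96 ± 0.29 against the mean (adjusted p = 0.0102, edgeR). NOTCH3, the pericyte receptor, ran from 23.0 to 34.6 CPM in 9 PB libraries and stood at 4.05 in PB8. The summed level of this list was 9437 to 16200 CPM in PB, 6718 to 14510 in LDM, 8442 to 13130 in HM and 5768 to 15070 in TM, a sum that includes the abundant muscle gene DES. Of 8 tested Schwann cell markers 0 were higher and 5 were lower, with a median of -1.04. Without PB1 and PB8 3 were lower, and with limma-voom 2. Their sum was 74.8 to 147 CPM in PB (median 91.8), with medians of 181 in LDM, 137 in HM and 127 in TM. PRX, periaxin of the myelin sheath, had a log2 change of -1.21 ± 0.33 (adjusted p = 0.00387, edgeR).

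Of 15 endothelial markers 0 were higher and 3 lower than the mean, with a median of -0.08, and without PB1 and PB8 0 were lower. PECAM1, an adhesion receptor of the vessel wall, had a log2 change of 0.02 ± 0.21 against LDM, -0.84 ± 0.21 against HM and -0.59 ± 0.21 against TM. The endothelial sum was 401 to 1034 CPM in PB (median 548), with medians of 502 in LDM, 889 in HM and 806 in TM. Of 14 fibroblast markers 2 were higher and 1 lower, with a median of 0.06, and the transcription factor TCF4 had a log2 change of 0.56 ± 0.15. Of the fibroblast markers, 1 was higher without PB1 and PB8. The fibroblast sum had medians of 1074 CPM in PB, 1118 in LDM, 1309 in HM and 1304 in TM. Of the endothelial, fibroblast, smooth muscle and Schwann cell markers tested, 0 were set apart by edgeR, DESeq2 or limma-voom, and 1 Schwann cell marker at an unadjusted p under 0.05. The part of these cells in the genes set apart was not tested.

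Among 13 satellite cell and myogenic genes 2 were higher and 2 lower than the mean, with a median of 0.16. MYMK, myomaker, which fuses myoblasts, was set apart lower at a level under 3 CPM in every library (smallest log2 change -1.19 ± 0.49), and it kept the call in 11 of 40 fits with 1 library left out. Its value without PB1 and PB8 was -1.03 (adjusted p = 0.107, edgeR), and 1 gene of the list was higher than the mean. Among 9 neuromuscular junction genes 2 were higher and 2 lower, with a median of -0.05. LRP4, the agrin receptor, was set apart lower (smallest log2 change -0.54 ± 0.20) and kept the call in 18 of 40. Without PB1 and PB8 it was -0.56 (adjusted p = 0.0526, edgeR), and 1 gene of the list was lower than the mean. Of 5 muscle spindle genes 1, the receptor GFRA1, was lower than the mean, at -0.67 ± 0.23, and the median was -0.51.

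Blood, skin and serosal cells were at low levels. Of 12 tested myeloid markers PTPRC, the leukocyte antigen CD45, was the 1 that was higher than the mean of the others, and the median was 0.30. It ran from 1.70 to 5.73 CPM in 9 PB libraries and reached 32.4 in PB8, and without PB8 its log2 change fell from 1.23 ± 0.34 to 0.32 (adjusted p = 0.402, edgeR). Of the myeloid markers, 0 were higher and 1 was lower without PB1 and PB8. The myeloid sum was 50.5 to 376 CPM in PB, with medians of 105.5 in PB, 109 in LDM, 161 in HM and 117 in TM. Of 14 lymphocyte, 9 mesothelial, 7 skin and 5 erythroid markers in the table, 2, 3, 3 and 1 passed the filter, and 0 were higher or lower than the mean at adjusted p under 0.05 (edgeR), or at an unadjusted p under 0.05. By DESeq2 it was also 0, and by limma-voom 1 lymphocyte marker was lower. Their medians were -0.18, -0.78, -0.07 and -0.44. LYZ, CD3G, BNC1, KRT5, KRT1, DSG1 and SLC4A1 had 0 counts in PB. In the other cuts together LYZ, CD3G, KRT1 and DSG1 also had 0 counts, KRT5 had 1, BNC1 3 and SLC4A1 12.

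The PB libraries differed from each other in a repeated way. PB3, PB5 and PB8 were the 3 highest PB libraries for TET2, PRKG1, SERPINB2, SOCS3 and JMJD1C. PB9 and PB10 were highest for ND5, HOXA9 and SIM1, while NPR3 was highest in PB7 and PB10. In the other PB libraries TET2 ran from 9.61 to 27.6 CPM, PRKG1 from 7.82 to 30.2, SERPINB2 from 0 to 0.815 and, away from PB9 and PB10, HOXA9 from 0 to 1.03. What these libraries share was not tested.

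**Figure D4:**
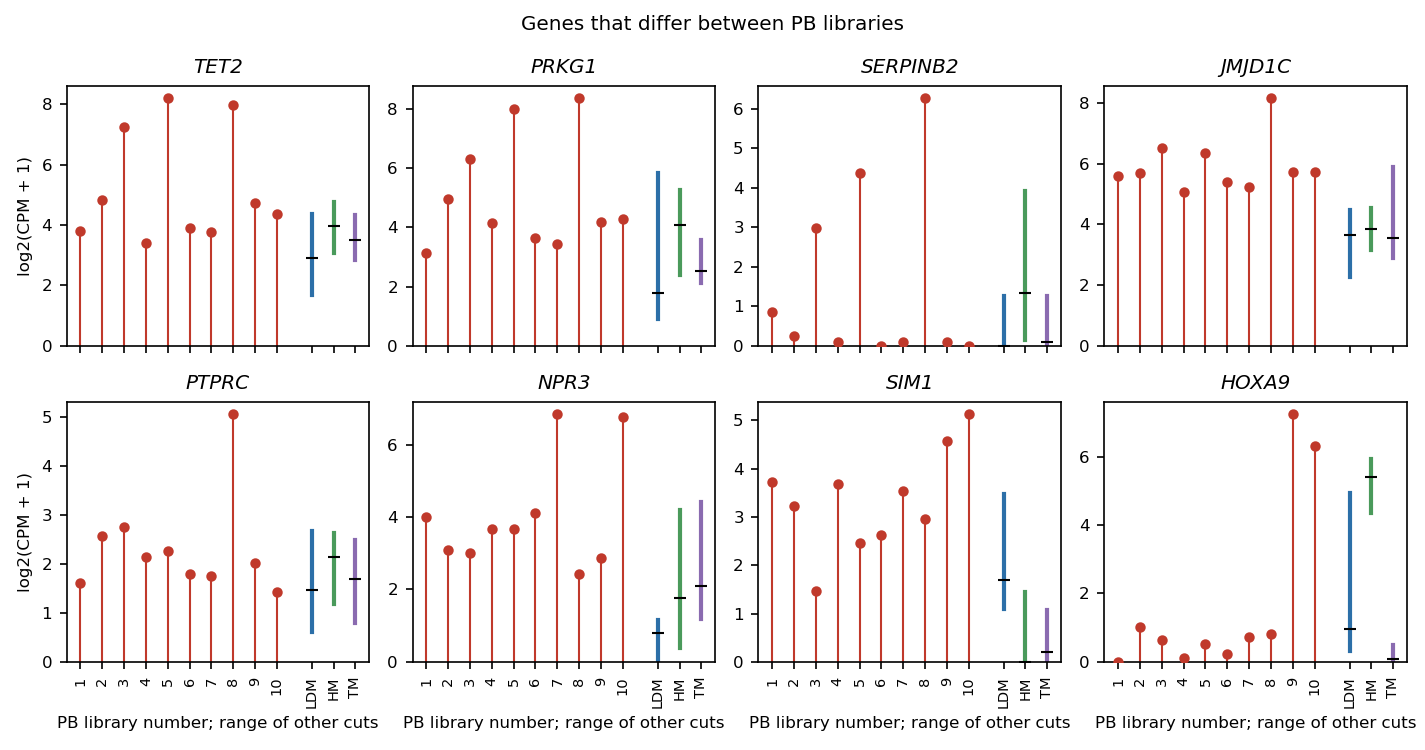
log2(CPM + 1) of 8 genes in each PB library (red stems, numbered 1 to 10), with the range (line) and median (tick) of the 10 libraries of each other cut at the right. TET2, PRKG1 and SERPINB2 are highest in libraries 3, 5 and 8, PTPRC in library 8, NPR3 in 7 and 10, and SIM1 and HOXA9 in 9 and 10.

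Genes set apart higher were longer than the rest. Their median length in the table was 6337 bases, that of the genes higher by 2-fold 6867, that of the genes set apart lower 5009 and that of all genes tested 4534. With the genes divided into 5 equal groups by length, from the shortest to the longest, 2.94%, 5.17%, 7.17%, 10.5% and 15.6% were set apart higher, and 2.22%, 2.90%, 3.33%, 3.59% and 3.37% lower. By mean abundance the higher share was 5.34% in the least abundant of 5 equal groups, 10.7% in the middle group and 7.26% in the most abundant. After a correction for the trend of each library with gene length, 915 of the 969 higher calls and 259 of the 361 lower calls remained. The part of length in the remaining calls was not tested.

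**Figure D5:**
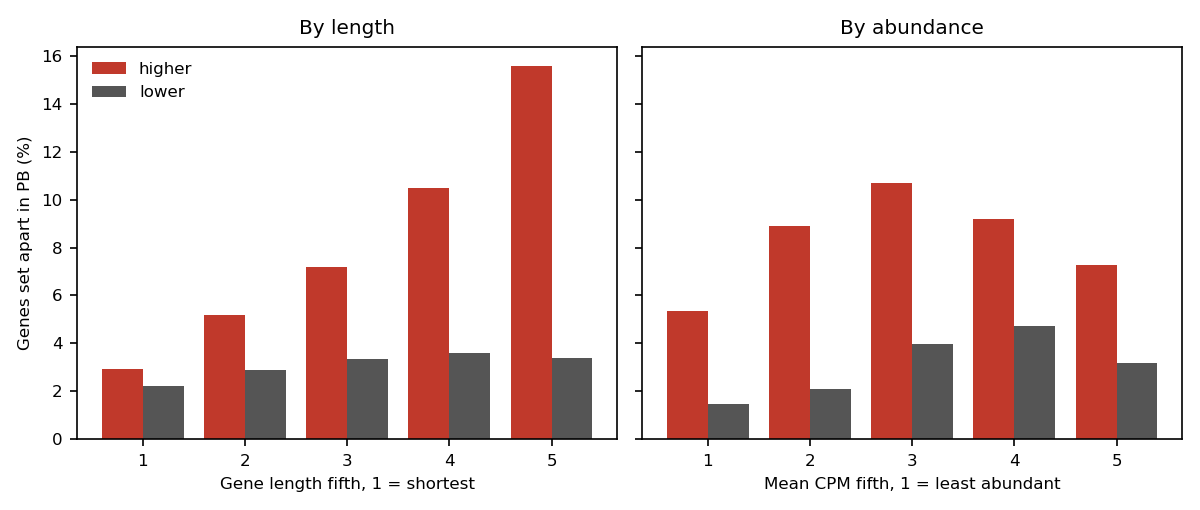
Share of the genes (%) of each of 5 equal groups that were set apart in PB, by gene length (left) and by mean CPM (right). Higher calls (red) rise from 2.94% in the shortest to 15.6% in the longest genes, and lower calls (grey) stay between 2.22% and 3.59%.

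The chromosomes contributed unequally. Of the genes tested on chromosome 15, 15.0% were set apart higher, and on chromosomes 1 and 16 it was 14.5% each. The share was 2.45% on chromosome 12, where 5.47% were set apart lower, 3.06% on chromosome 17 and 8.58% on the X chromosome. Gene length was not held equal in these shares, and base composition was not analysed here.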

How the data were processed

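Per the file headers, the deposited table holds read counts, as whole numbers, and FPKM for each gene and library. Tools listed in the submitters' processing notes are HTSeq 0.9.1, HISAT2 2.0.5 and cutadapt 1.15, with the build Sscrofa11.1, and the labels name a stranded KAPA kit. The authors' FPKM equal the count scaled by length and library total in 100% of values (tolerance 0.001) and were used to compare genes only. Symbols came from the table for 14883 genes and from the reference for 1317. Percentages use the library total.

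Tests used edgeR 4.0.16 in R 4.3.3 on the counts: TMM scaling, filterByExpr by cut (11713 genes), robust quasi-likelihood fit of 40 libraries with cut as the only term, Benjamini-Hochberg adjustment over all genes tested. CPM uses the TMM-scaled total. Alternatives used DESeq2 1.42.0 and limma 3.58.1. The fit was tested on simulated data. Libraries of a cut differed by at least 31.5 in chi-square per gene, so none was counted as 1.

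The members and the 37 gene lists were chosen with earlier results of these data known. Named genes are those with a symbol, at least 1 CPM on the higher side and a call kept with any library left out: 12 higher and 12 lower by smallest change and the 5 most abundant each way. To these come up to 3 set-apart members of each list, or its member with the smallest adjusted p, and MYH7, ND2, ADIPOQ, FASN, SCD, PRRX1, NPR3, COL1A1 and PTPRC. Genes that the text says were picked out after their values were seen lie outside this rule. Values of some members of 2 of these lists are not reported here.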

Additional observations from a re-analysis of the deposited data

Results flagged for a closer look

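Values far from the other PB libraries were searched for on the log2(CPM + 1) scale in the named genes of PB, and in the mitochondrial share of counts of each cut. In 95 sets of 10 libraries, 7 had a highest or lowest library whose gap to its neighbour, divided by the whole range, was above 0.466. Chance flags about 1 in 20 such sets. PB8 was the library in 6 of the 7. JMJD1C was at 283.9 CPM in PB8, where the remaining 9 ran from 32.5 to 91.4. NFE2L2 was at 109 CPM in PB8, against 41.2 to 65.1, and PTPRC at 32.4, against 1.70 to 5.73. On the low side, DLD was at 105 CPM in PB8, against 167 to 249, COL5A3 at 11.15, against 38.5 to 88.5, and NOTCH3 at 4.05, against 23.0 to 34.6. The remaining one was LRPPRC in PB5, at 215 CPM, against 121 to 159.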

How the results depend on the processing

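The 3 counts of higher genes stayed within 1.5 times of their values under every alternative tried, also with any library left out, and those of lower genes did not. Against the mean of the others 1931 lower genes became 1195 when the scaling left out the mitochondrially encoded genes and 1171 without HM6, HM9, TM3 and TM7, a choice made after seeing the data, as was leaving out TM6 with those 4, which gave 1892. The 361 genes set apart lower became 167 and 140 in the first 2 of those fits, 315 without the 5 libraries and 219 with no filter, and the 22 lower by 2-fold became 13 without the 4 libraries and 12 without PB1 and PB8. With each library left out in turn the higher and lower counts ran from 1932 to 2360 and from 1217 to 2019 against the mean, from 884 to 1132 and from 168 to 379 for genes set apart, and from 324 to 426 and from 15 to 33 by 2-fold. With the scaling factors of all libraries kept, the lower counts ran from 1730 to 2019, from 288 to 383 and from 16 to 33. The reference library of the scaling changes in 15 of the 40 fits, from HM7 to LDM6 or PB1, and the count set apart lower was 168 to 179 (without HM4, HM7, HM9, LDM1, LDM5, LDM8, TM4, TM5 or TM8) and 202 to 244 (without HM6, LDM7, LDM9, TM3, TM6 or TM7) there and 288 to 379 elsewhere. The excess of the mitochondrial share over LDM, HM, TM and all others ran from 7.11 to 7.88, 2.96 to 3.72, 4.55 to 5.32 and 4.87 to 5.64 points. HOXA9 reversed, from 2.78 to -1.16 (adjusted p = 0.317) with limma-voom, and the cause was not tested. With the replicate block, 1100 genes were set apart higher and 503 lower, and 2219 and 2388 differed from the mean. The labels do not say that a shared number marks a shared pig. Same-numbered libraries of different cuts correlated at -0.13 to 0.51, with a median of 0.245, against -0.0319 for different numbers. The value was over 0.1 in 52 of 60 pairs, and 28 of 40 libraries correlated best with their own number, a hint from the data that they may be paired. The design does not state a pairing and the 0.1 was not passed in every pair, so the fit without the block was kept. The block also brought CASQ1 past the threshold against the mean (-0.34, adjusted p = 0.0439, edgeR), left 1 collagen and 3 other matrix genes higher and 0 of the latter set apart, and gave 3 collagens set apart lower. Genes under about 1 CPM rest on few reads, which limits what can be said of them.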
